A study of Mus musculus with 10 samples.

Results

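The syndecans and glypicans are the cell-surface carriers of heparan sulfate, and their transcripts were followed in cultured mouse mammary epithelial cells with and without added biglycan. The genes were taken by symbol from the count table: 4 syndecans (Sdc1, Sdc2, Sdc3 and Sdc4) and 5 glypicans (Gpc1, Gpc2, Gpc3, Gpc4 and Gpc6), 9 of 53167 listed genes. All 9 were present and all 9 passed the filter on low counts, which left 14415 genes for testing. Gpc5, the remaining glypican, was not among the genes chosen and had between 0 and 2 counts per library.

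Syndecans are transmembrane proteins with a short cytoplasmic tail, and glypicans are held at the outer face of the membrane by a lipid anchor. Both carry long sulfated sugar chains that bind fibroblast growth factors, hepatocyte growth factor, WNT proteins and matrix proteins and present them to signalling receptors. In mammary epithelium Sdc1 is best known, since mice lacking it are protected from tumours driven by a Wnt1 transgene. Biglycan itself is a small secreted proteoglycan of the matrix that usually carries chondroitin or dermatan sulfate.

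The BGN group held 5 samples of wild-type primary mammary epithelial cells given biglycan protein at 100 ng/mL. The same kind of cells with none added formed the Control group, also of 5 samples. All cells were grown in serum-containing medium. The labels give no mouse strain, age or length of stimulation, nor do they say if replicates are separate animals or cultures. The p-values here therefore cover the spread among these samples only, and that spread may be technical. The comparison asked which transcripts respond to biglycan, with WNT signalling and migration as the stated interest.

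Libraries held between 18292624 and 21820560 counts, and the groups' totals overlapped. Markers of both epithelial layers were abundant: the summed level of 8 basal markers ran from 5422 to 5696 CPM (read counts scaled to a common library size, here by library totals) in BGN and from 5360 to 6625 CPM in Control libraries, and that of 10 luminal markers from 3814 to 4097 CPM in BGN libraries and from 3942 to 4440 CPM in Control libraries. Of the contractile markers in the basal list, Oxtr averaged 166 CPM and Acta2 27.7 CPM over the 10 libraries, while Myh11 and Cnn1 were too low to test. In the luminal list Esr1, Pgr and Foxa1 averaged only 16.53, 17.97 and 17.82 CPM over the 10 libraries. The other luminal markers averaged between 142.9 and 1127 CPM. Fibroblast markers, 9 genes, summed to between 46.4 and 52.7 CPM in BGN libraries and between 40.6 and 59.8 CPM in Control libraries, most of it Pdgfra. Col1a1 averaged 4.42 CPM and Dcn 2.63 CPM over the 10 libraries, while Lum, Thy1, Col1a2, Col3a1, Pdgfrb and Fap averaged under 1 CPM each. The 7 myeloid markers summed to at most 3.82 CPM in BGN libraries and 4.25 CPM in Control libraries with Adgre1 at 0, the 5 endothelial markers to at most 5.72 CPM in BGN libraries and 6.07 CPM in Control libraries with Cdh5, Kdr, Tek and Emcn too low to test, and the 5 adipocyte markers to at most 1.14 CPM in BGN libraries and 1.41 CPM in Control libraries. The myeloid sum came mostly from Cd68 and Csf1r (means of 1.65 and 1.26 CPM), the endothelial sum from Pecam1 and the adipocyte sum from Fabp4. Over these 6 sums the smallest p between BGN and Control was 0.111 (exact permutation test, two-sided). Control replicate 5 stood apart by its share of mitochondrially encoded counts, 1.16% against 1.80% to 2.27% in the other 9 libraries.

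Transcript levels of the family spanned a wide range, and syndecans made up most of it. On a scale of CPM per kb of each gene's longest annotated transcript, which allows levels of different genes to be set side by side, Sdc1 stood at 272 ± 11.9 in BGN and 283 ± 12.4 in Control (SD, n = 5 each, as for all group values). Sdc4 followed with 189 ± 6.11 CPM per kb in BGN libraries and 192 ± 5.39 CPM per kb in Control libraries. Sdc3 reached 61.7 ± 3.22 CPM per kb in BGN libraries and 62.8 ± 1.90 CPM per kb in Control libraries, which placed it next. Together the 4 syndecans held between 88.3% and 89.5% of the summed level of the 9 genes in BGN libraries and between 88.8% and 90.5% in Control libraries.

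Glypicans began at the fourth rank. Gpc4 stood at 40.4 ± 2.85 CPM per kb in BGN libraries and 38.0 ± 1.90 CPM per kb in Control libraries, above Sdc2 at 28.4 ± 0.969 CPM per kb in BGN libraries and 28.7 ± 1.10 CPM per kb in Control libraries. Gpc6 reached 16.9 ± 1.94 CPM per kb in BGN libraries and 16.8 ± 2.40 CPM per kb in Control libraries, and Gpc1 9.51 ± 0.740 CPM per kb in BGN libraries and 9.88 ± 0.788 CPM per kb in Control libraries. Gpc2 and Gpc3 were rare. Their levels were 0.811 ± 0.0945 and 0.490 ± 0.137 CPM per kb in BGN libraries, and 0.910 ± 0.198 and 0.554 ± 0.253 CPM per kb in Control libraries. The mean level of Sdc1 over the 10 libraries was 532-fold that of Gpc3.

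This order was the same in almost every library. For the first 7 pairs of neighbours the ranges over the 10 libraries did not overlap, and the smallest step was from Gpc4 to Sdc2, with a ratio between 1.22 and 1.52 in single libraries. Only Gpc2 and Gpc3 overlapped, with Gpc2 above Gpc3 in 9 of 10 libraries and a ratio between 0.873 and 3.87. The order rests on the transcript length used. It was the same with merged exons as the length, but with the median annotated transcript, which counts short partial transcripts, it read Sdc1, Sdc3, Sdc4, Gpc1, Gpc4, Sdc2, Gpc6, Gpc2 and Gpc3. With the shortest transcript it was Sdc1, Sdc4, Sdc3, Gpc1, Gpc6, Gpc4, Sdc2, Gpc2 and Gpc3.

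**Figure D1:**
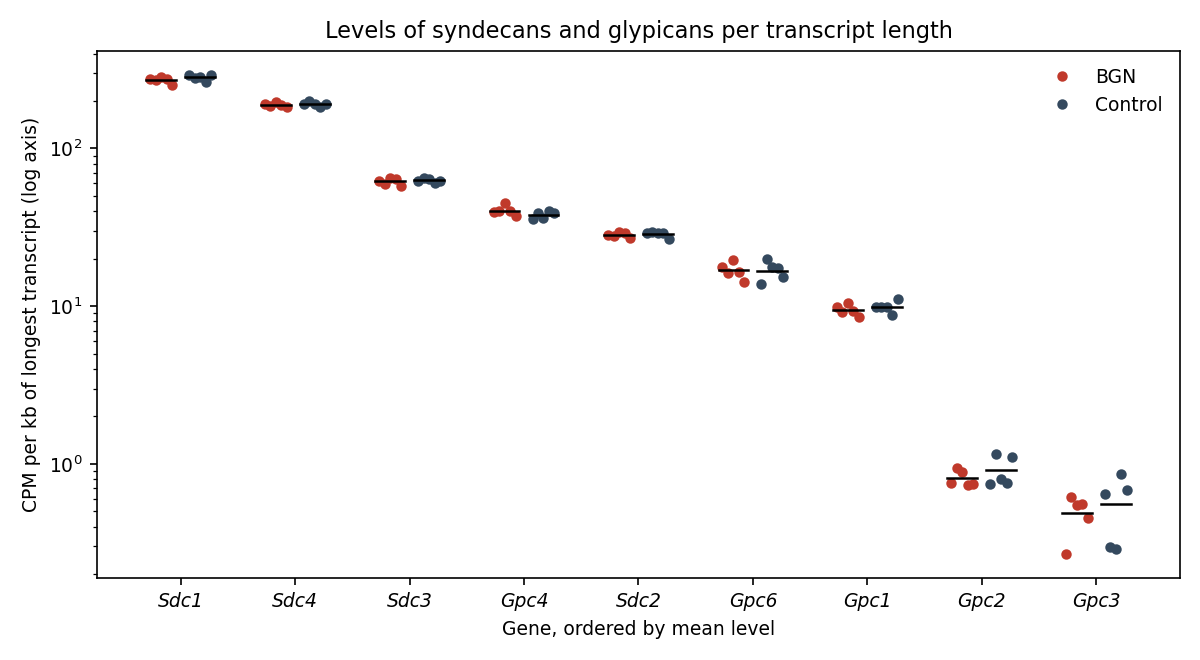
Level of each gene in CPM per kb of its longest transcript (vertical log axis) with genes ordered by their mean over the 10 libraries; each point is a library, red for BGN and dark blue for Control, and black lines are group means. Sdc1 and Sdc4 lie highest, Gpc2 and Gpc3 lie well below Gpc1, and the groups overlap for every gene.

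Gpc4 and Gpc3 lie next to each other on the X chromosome, with no protein-coding gene listed between them, yet the mean level of Gpc4 was 75.1-fold that of Gpc3 per kb. Their promoters are printed here with that of the most abundant gene, Sdc1, so that the sequence before the start of abundant and rare transcripts can be compared. Each is the 250 bases before the annotated start, read in the direction of the gene from RefSeq (GRCm38.p6, an older build than the GRCm39 named in the submitters' processing notes), and capitals mark matches to the GC box GGGCGG on either strand.
Sdc1, chr12:8771146-8771395, plus strand: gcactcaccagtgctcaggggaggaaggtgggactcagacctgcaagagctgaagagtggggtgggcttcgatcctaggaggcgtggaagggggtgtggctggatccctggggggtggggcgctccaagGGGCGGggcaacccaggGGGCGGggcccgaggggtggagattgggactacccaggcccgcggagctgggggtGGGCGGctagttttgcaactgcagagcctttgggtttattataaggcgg
Gpc4, chrX:52164924-52165173, minus strand: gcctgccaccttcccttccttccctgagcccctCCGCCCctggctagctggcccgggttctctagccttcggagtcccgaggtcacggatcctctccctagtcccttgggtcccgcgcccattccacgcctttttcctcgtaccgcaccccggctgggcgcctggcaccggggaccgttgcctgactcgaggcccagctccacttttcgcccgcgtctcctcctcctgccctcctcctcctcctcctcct
Gpc3, chrX:52613975-52614224, minus strand: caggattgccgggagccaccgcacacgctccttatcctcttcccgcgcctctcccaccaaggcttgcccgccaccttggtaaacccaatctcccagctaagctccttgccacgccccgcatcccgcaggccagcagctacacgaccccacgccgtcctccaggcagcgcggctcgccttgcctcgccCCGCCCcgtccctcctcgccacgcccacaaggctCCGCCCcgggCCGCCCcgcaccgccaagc
The promoter of the rare Gpc3 held 3 GC boxes, 71.6% G or C and 25 CpG dinucleotides, and the Gpc4 promoter 1 GC box, 68.4% G or C and 18 CpG dinucleotides. The Sdc1 promoter held 3 GC boxes, 66.0% G or C and 10 CpG dinucleotides. Of the 9 genes, 6 had a promoter in the RefSeq table (Sdc1, Sdc3, Sdc4, Gpc2, Gpc3 and Gpc4). All 6 held at least 1 GC box, against 32.7% of all 32851 promoters of the same length, and 0 held TATAAA on either strand, against 12.4%. G or C made up 66.0% to 76.4% of these 6 promoters, and the median over all promoters was 52.4%. The set of all promoters was not limited to expressed genes or to a like share of G and C. Among these 6, the rare Gpc2 and Gpc3 held 3 GC boxes each, and the more abundant Sdc1, Sdc3, Sdc4 and Gpc4 held 1 to 4. TATAAA, absent from all 6, could not sort them, and Sdc2, Gpc1 and Gpc6 had no promoter to compare. A match is a description of the sequence and not evidence of a factor at the site.

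No syndecan or glypican was called between BGN and Control. By edgeR's quasi-likelihood test, 0 of 9 genes passed at an adjusted p under 0.05, where 0% of all 14415 tested genes passed. At an unadjusted p under 0.05 the count was 0 of 9 by edgeR, beside 4.81% of all tested genes. It was 0 of 9 by DESeq2, beside 662 of 14414 genes, and 1 of 9 (Gpc4) by limma-voom, beside 801 of 14415 genes. The libraries of the groups overlapped for all 9 genes, and 0.728% of all tested genes had groups that did not overlap. Estimates lay below 0 for 7 genes and above 0 for 2 (Gpc4, and Gpc6 by an amount that turned to -0.0026 with library totals as the scaling), with a median log2 fold change (BGN over Control) of -0.025, beside -0.0040 over all tested genes. In these bulk samples fewer cells that carry a transcript and less of it per cell cannot be told apart.

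The estimates were narrow for the abundant members. The 95% interval lay within 1.2-fold in either direction for 7 of the 9 genes, and for 61.4% of all tested genes. The exceptions were Gpc2 and Gpc3, the genes with the fewest counts.

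**Figure D2:**
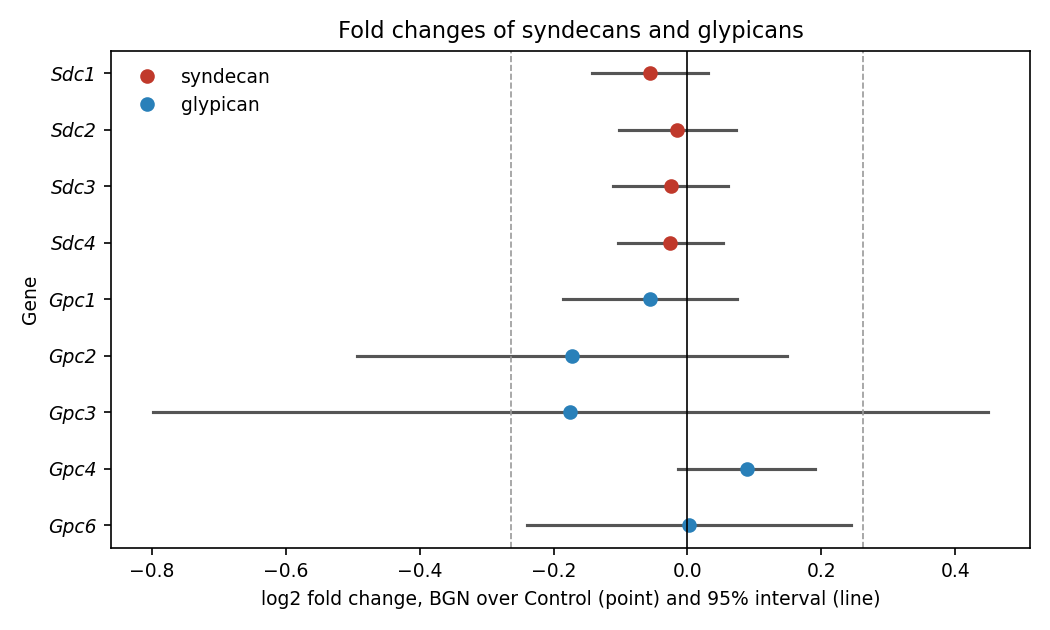
Log2 fold change of each gene, BGN over Control (horizontal axis), as points with lines for the 95% interval; syndecans are red and glypicans blue, the solid line marks 0 and dashed lines mark 1.2-fold in either direction. Every interval spans 0, and only those of Gpc2 and Gpc3 cross a dashed line.

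All 4 syndecans had estimates below 0, by small amounts that for Sdc2 and Sdc3 turned without BGN replicate 5 (0.0029 and 0.00090). Sdc1, the main syndecan of epithelia and a co-receptor for growth factors and WNT proteins, had 877, 853.5, 901, 865 and 800 CPM in BGN replicates 1 to 5 (CPM here scaled with TMM factors), against 926, 886, 894, 831.5 and 927 CPM in Control replicates 1 to 5. The lowest library was BGN replicate 5 and the highest Control replicate 5, with the groups overlapping. The group values were 859 ± 37.5 CPM in BGN libraries and 893 ± 39.0 CPM in Control libraries, which is a log2 fold change of -0.056 ± 0.042 (SE), 95% interval from -0.14 to 0.031, with 0.957 as adjusted p by edgeR. Without BGN replicate 5 the estimate was -0.030, and without both replicates 5 it was -0.016.

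Sdc4, a nearly ubiquitous syndecan that sits in focal adhesions and binds protein kinase C alpha, was the other abundant member. It had 470, 454, 486, 464 and 447 CPM in the BGN libraries, against 472, 491, 473, 454 and 474 CPM in the Control libraries, listed in replicate order as for all genes here. All 10 values lay close together, and BGN replicate 5 was again the lowest. The log2 fold change was -0.025 ± 0.038 (SE, interval -0.10 to 0.053), and it ran from -0.043 without BGN replicate 3 to -0.011 without Control replicate 2 or BGN replicate 5.

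Sdc3, best known from the nervous system, came next in level. Its values were 311, 294.5, 323.5, 320 and 286 CPM in BGN libraries and 309, 324, 318, 299 and 311 CPM in Control libraries, where BGN replicate 5 was lowest and Control replicate 2 highest. The log2 fold change was -0.025 ± 0.042 (interval -0.11 to 0.061). Exons of predicted genes on the opposite strand cover 6.93% and 0.801% of its merged exons, and both of those genes had 0 counts.

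Sdc2, known for roles in mesenchymal cells and vessel formation, was the least abundant syndecan. It had 99.6, 98.7, 104, 103 and 95.7 CPM in BGN libraries, against 103, 104, 102, 103 and 94.4 CPM in Control libraries. Control replicate 5 was the lowest of all 10 libraries, followed by BGN replicate 5, and the remaining libraries lay between 98.7 and 104 CPM. The log2 fold change was -0.015 ± 0.042 (interval -0.10 to 0.072). The adjusted p of Sdc2, Sdc3 and Sdc4 was at least 0.979 by edgeR.

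Among the glypicans Gpc4 had the smallest p of the family. Gpc4, which marks neural progenitors and is secreted by astrocytes, had 105, 106, 119, 107 and 98.4 CPM in the BGN libraries, against 94.4, 104, 96.55, 106 and 103 CPM in the Control libraries. BGN replicate 3 was the highest library and Control replicate 1 the lowest, and 4 of 5 BGN libraries lay above the Control median, with the groups overlapping. The means were 107 ± 7.56 CPM in BGN libraries and 101 ± 5.03 CPM in Control libraries, or 0.088 ± 0.049 as log2 fold change (SE, interval -0.014 to 0.19) that did not pass (adjusted p = 0.945 by edgeR, unadjusted 0.0866). Without BGN replicate 3 it was 0.047, and without BGN replicate 5 it was 0.12 with an unadjusted p of 0.023 and an adjusted p of 0.883.

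Gpc6, a widely expressed glypican whose loss in humans causes a skeletal disorder, spread more than the other abundant members. Its values were 73.5, 67.5, 81.0, 68.4 and 59.2 CPM in BGN libraries and 56.9, 82.8, 73.3, 72.4 and 63.2 CPM in Control libraries. Both groups held a low and a high library: BGN replicates 5 and 3, and Control replicates 1 and 2. Its biological coefficient of variation was 11.7%, against 4.93% to 6.56% for Gpc1, Gpc4 and the syndecans and a median of 6.45% over the 11965 tested genes that averaged 50 counts or more. The means were 69.9 ± 8.03 CPM in BGN libraries and 69.7 ± 9.96 CPM in Control libraries, a log2 fold change of 0.0021 ± 0.11 (interval -0.24 to 0.24). With single libraries left out the estimate ran from -0.063 without Control replicate 1, and below 0 also without BGN replicate 1 or 3 or Control replicate 5, to 0.073 without Control replicate 2.

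Gpc1, a broadly expressed glypican that binds fibroblast growth factors, had 41.4, 38.3, 43.9, 39.0 and 35.8 CPM in BGN libraries, against 41.0, 41.2, 41.0, 36.95 and 46.2 CPM in Control libraries. Its lowest value came from BGN replicate 5 and its highest from Control replicate 5. The log2 fold change was -0.056 ± 0.063 (interval -0.19 to 0.074). It was -0.019 without BGN replicate 5, -0.012 without Control replicate 5 and 0.025 without both of these libraries. Exons of Ankmy1, on the opposite strand, cover 18.9% of its merged exons. Ankmy1 averaged 9.9 counts per library, and Gpc1 794.

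Gpc2 and Gpc3 rested on few counts. Gpc2, first described in the developing nervous system, had between 58 and 104 counts per library. Its values were 3.22, 4.00, 3.76, 3.125 and 3.145 CPM in BGN libraries, against 3.17, 4.89, 3.41, 3.21 and 4.675 CPM in Control libraries, where replicates 2 and 5 were the highest of all 10. The log2 fold change was -0.17 ± 0.16 (interval -0.49 to 0.15), and -0.070 without Control replicate 2 or -0.099 without Control replicate 5. An overlapping predicted gene on the same strand covers 55.6% of the merged exons of Gpc2 but averaged 0.2 counts.

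Gpc3, an oncofetal glypican mutated in a human overgrowth syndrome, had only 12 to 37 counts per library. It reached 0.595, 1.37, 1.22, 1.24 and 1.00 CPM in BGN libraries, against 1.42, 0.6585, 0.639, 1.915 and 1.505 CPM in Control libraries. The low values were spread over the groups, in BGN replicate 1 and Control replicates 2 and 3. The highest came from Control replicates 4, 5 and 1, and 0 of 5 BGN libraries lay above the Control median, with the groups overlapping. Counting alone would give a coefficient of variation of 21.1% at this depth, and the observed one was 28.0% in BGN and 45.7% in Control. The log2 fold change was -0.17 ± 0.30 with an interval from -0.80 to 0.45, and 0.046 without Control replicate 4, and at this depth the interval reaches 1.74-fold lower and 1.37-fold higher in BGN. The adjusted p of Gpc1, Gpc2, Gpc3 and Gpc6 was at least 0.965 by edgeR.

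**Figure D3:**
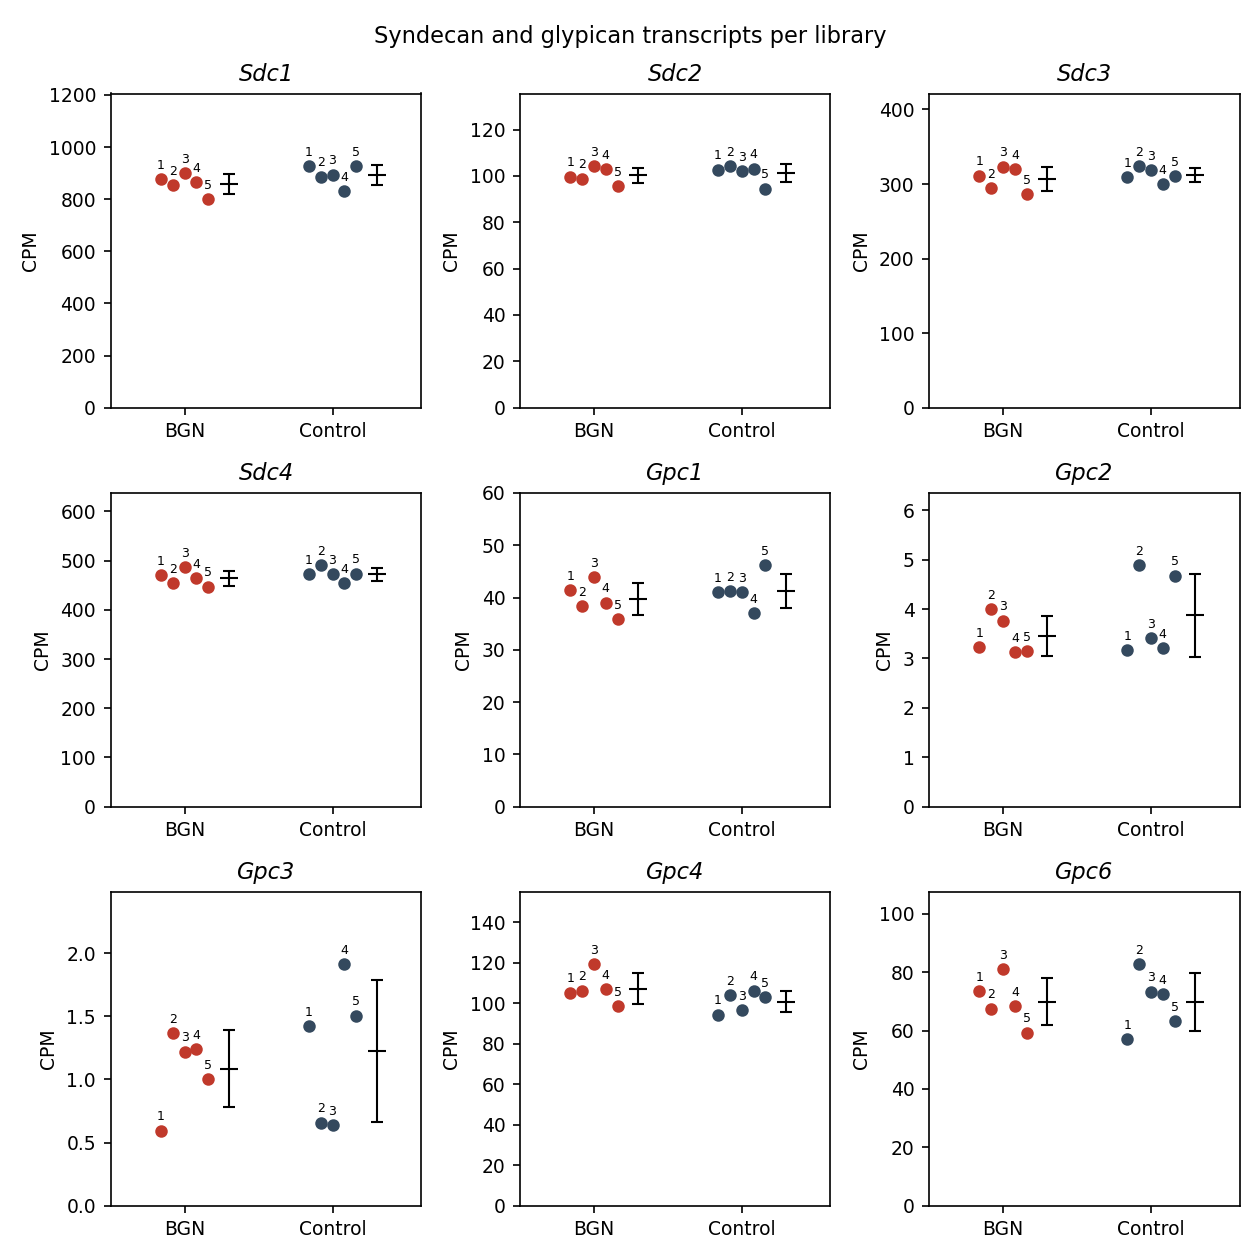
CPM of each gene (vertical axis, from 0) in each library, with BGN in red at the left and Control in dark blue at the right; small numbers are replicate numbers, and the bar beside each group is the mean ± SD of its 5 libraries. The groups overlap in all 9 panels, and the relative spread is widest for Gpc2 and Gpc3.

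Some libraries stood out across the family. In BGN replicate 5 all 9 genes lay below their own mean over the 10 libraries (median deviation -0.11 on the log2 CPM scale), and in BGN replicate 3 all 9 lay above it (median 0.064). The medians over all tested genes were 0.0055 in BGN replicate 5 and 0.0029 in BGN replicate 3. Among the 5 BGN libraries, replicate 5 had the lowest value for 7 of the 9 genes, where it had the lowest for 23.8% of all tested genes. Replicate 3 had the highest value for 7 of the 9 genes, against 20.5% of all tested genes. In Control, replicate 2 had 8 of 9 genes above their mean (median 0.047, beside -0.0035 over all tested genes). Among the 5 Control libraries it had the highest value for 5 of the 9 genes, against 18.2% of all tested genes. Control replicate 4 had the lowest value for 4 of the 9 and the highest for 2, against 19.0% and 19.9%. For Gpc2 and Gpc3 other BGN libraries were lowest and highest. These counts describe libraries picked after their values were seen, and the source of the difference between libraries was not tested.

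**Figure D4:**
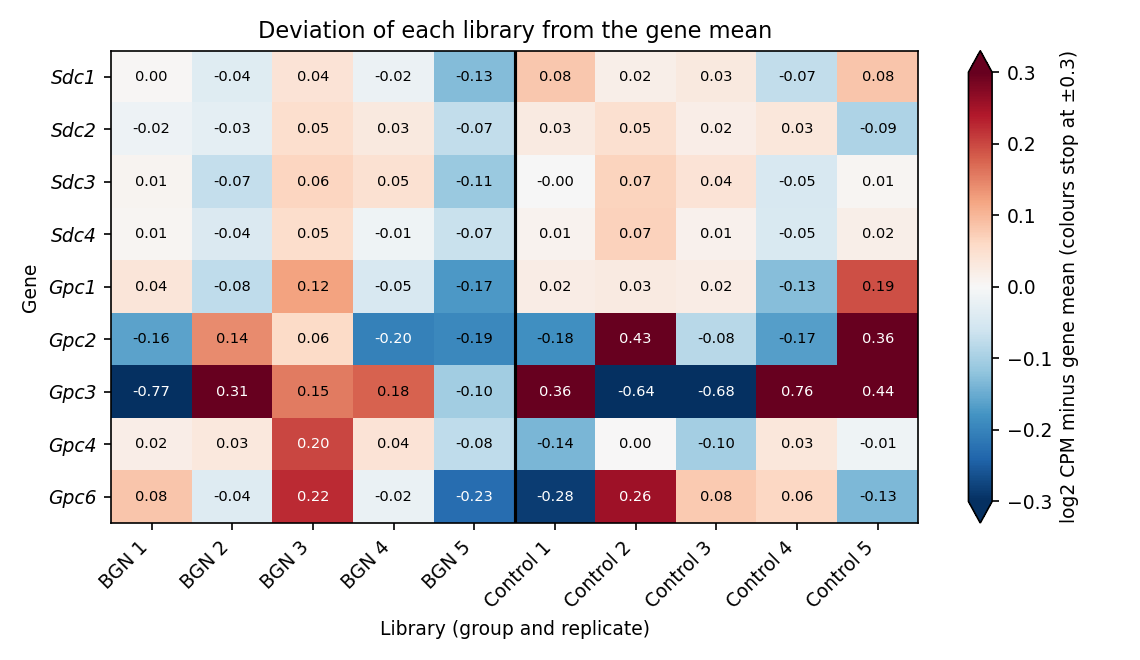
Deviation of log2 CPM from the mean of the gene over the 10 libraries, for each gene (rows) in each library (columns, BGN left of the black line and Control right of it); red is above and blue below the mean, with colours stopping at 0.3 and the value printed in each cell. The BGN 5 column is blue and the BGN 3 column red for all 9 genes, while Gpc3 varies most.

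The genes whose library pattern was most like that of the most abundant syndecan and glypican were found by the root mean square difference of mean-centred log2 CPM over the 10 libraries, among 11964 other genes that averaged 50 counts or more. For Sdc1 these were P4hb, a protein disulfide isomerase gene, at 830 ± 26.0 CPM in BGN libraries and 867 ± 38.0 CPM in Control libraries, and Krt18, a luminal keratin gene, at 567 ± 26.3 CPM in BGN libraries and 599 ± 35.2 CPM in Control libraries. Their differences from Sdc1 were 0.0248 and 0.0257, against a median of 0.118 over all genes compared. For Gpc4 they were Tmem30b, at 60.7 ± 5.14 CPM in BGN libraries and 57.5 ± 1.51 CPM in Control libraries, and Palmd, at 105 ± 4.50 CPM in BGN libraries and 101 ± 3.26 CPM in Control libraries. These differed from Gpc4 by 0.0402 and 0.0409, against a median of 0.134. Being picked as the closest, these genes had to lie below the medians. A gene with no variation at all would differ by 0.0637 from Sdc1 and by 0.0894 from Gpc4. All of these points share the libraries and their scaling.

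The enzymes that build and trim heparan sulfate on these core proteins, and the partners that read it, also gave no call. Of 87 genes in 6 lists, 71 were tested: 40 had estimates above and 31 below 0, 0 passed at an adjusted p under 0.05 by edgeR (DESeq2 and limma-voom called 0 of all tested genes), and 2 (2.82%) had an unadjusted p under 0.05, beside 4.81% of all tested genes. The groups overlapped for all 71.

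Chain synthesis was fully represented. All 11 listed genes for the linker and the sugar backbone were tested, with 3 above and 8 below 0 and a median log2 fold change of -0.015. Ext1 and Ext2, which encode the subunits of the polymerase that extends the chain, stood at 31.3 and 36.2 CPM per kb over the 10 libraries. The smallest p belonged to B3galt6 and B4galt7, linker galactosyltransferase genes. B3galt6 was at 10.9 ± 0.959 CPM in BGN libraries and 11.6 ± 0.401 CPM in Control libraries (log2 fold change -0.092, and -0.045 without BGN replicate 3), and B4galt7 at 15.7 ± 0.902 CPM in BGN libraries and 16.7 ± 1.53 CPM in Control libraries (-0.083, and -0.024 without Control replicate 5).

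Genes that modify the chain were tested in 10 of 15 cases, 8 above and 2 below 0 (median 0.032). The deacetylase and sulfotransferase gene Ndst1 and the 6-O-sulfotransferase gene Hs6st1 led by level, at 37.6 and 58.5 CPM per kb, whereas Ndst3, Ndst4, Hs6st3, Hs3st2 and Hs3st5 were too low to test. Glce, the epimerase gene, had 95.8, 94.8, 95.6, 95.6 and 97.0 CPM in BGN libraries, against 89.2, 92.15, 93.25, 95.8 and 85.5 CPM in Control libraries. The BGN libraries varied little, and only Control replicate 4 reached into their range. Its log2 fold change was 0.071 ± 0.041. Hs6st2, a rare 6-O-sulfotransferase gene, was at 1.93 ± 0.601 CPM in BGN libraries and 2.51 ± 0.414 CPM in Control libraries, a log2 fold change of -0.38 ± 0.21. With single libraries left out it ran from -0.51 without BGN replicate 4 (unadjusted p 0.0288 by edgeR) to -0.26 without BGN replicate 3 (0.219). The unadjusted p was above 0.05 with all libraries, and with any library other than BGN replicate 4 left out. With all libraries the adjusted p of Glce and Hs6st2 was 0.945 by edgeR.

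Removal of sulfate groups and shedding of core proteins were represented by 9 of 11 genes, 6 above and 3 below 0 (median 0.0079). The most abundant, picked after their levels were seen as were those named for level above, were Mmp14 and Adam10, membrane proteases that can cleave syndecans, at 163 and 109 CPM per kb, and Sulf2, an extracellular 6-O-endosulfatase gene, at 92.7 CPM per kb. The heparanase gene Hpse reached only 0.419 CPM per kb, and Notum, whose product acts on WNT proteins, was too low to test. Adam10 stood at 508 ± 10.0 CPM in BGN libraries and 494 ± 27.5 CPM in Control libraries (log2 fold change 0.040, with 0.011 without Control replicate 5 and 0.065 without Control replicate 3). Mmp9 was rare, at 0.716 ± 0.229 CPM in BGN libraries and 0.555 ± 0.177 CPM in Control libraries (0.38 ± 0.32, with 0.18 without BGN replicate 1 and 0.23 without Control replicate 2).

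The cytoplasmic partners of syndecans numbered 11, all tested, with 8 above and 3 below 0 (median 0.015). Their folds lay between 0.983 and 1.04. Synj2bp, which encodes a PDZ protein of the outer mitochondrial membrane, was at 76.0 ± 3.12 CPM in BGN libraries and 73.4 ± 1.65 CPM in Control libraries, and Tiam1, an exchange factor gene for Rac, at 44.5 ± 2.21 CPM in BGN libraries and 43.3 ± 2.67 CPM in Control libraries. With single libraries left out the log2 fold change of Tiam1, 0.038, ran from 0.0091 without Control replicate 1 to 0.066 without BGN replicate 4. Sdcbp, the gene of syntenin, which binds the end of the syndecan tail, stood at 485 ± 15.5 CPM in BGN libraries and 483 ± 21.1 CPM in Control libraries and was picked for its role after its values were seen.

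Other carriers of heparan sulfate held both genes with an unadjusted p under 0.05. Of 11 listed carriers 8 were tested, 4 above and 4 below 0 (median 0.030). Cd44, whose splice forms can carry the chain, had 657, 706, 676.5, 674 and 672 CPM in BGN libraries, against 601, 620, 623, 665 and 627 CPM in Control libraries. All BGN libraries but replicate 1 lay above every Control library. The means were 677 ± 17.9 CPM in BGN libraries and 627 ± 23.2 CPM in Control libraries, a log2 fold change of 0.11 ± 0.038 (adjusted p = 0.945 by edgeR, unadjusted 0.00812, and between 0.00263 and 0.0282 with single libraries left out). Hspg2, the gene of the basement membrane proteoglycan perlecan, had 197, 183, 183, 152 and 164 CPM in BGN libraries, against 148, 165, 154.5, 146 and 172 CPM in Control libraries, with BGN replicates 4 and 5 inside the Control range. Its log2 fold change was 0.16 ± 0.065 (adjusted p = 0.945, unadjusted 0.0236). That p was above 0.05 when any 1 of 6 libraries was left out (BGN replicates 1, 2 and 3, and Control replicates 1, 3 and 4), where it lay between 0.0529 and 0.0765. Both were the genes of smallest p in their list, so these values are a description.

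Heparin-binding ligands and their receptors were tested in 22 of 28 cases, 11 above and 11 below 0 (median 0.0041). Bmp2 was at 20.0 ± 1.88 CPM in BGN libraries and 18.3 ± 1.70 CPM in Control libraries (log2 fold change 0.13 ± 0.080, with 0.077 without Control replicate 2 and 0.080 without BGN replicate 5), and Bmp7 at 10.4 ± 1.57 CPM in BGN libraries and 9.49 ± 0.406 CPM in Control libraries (0.13 ± 0.099, and 0.041 without BGN replicate 4). Both encode bone morphogenetic proteins. Fgf7, Fgf10, Fgfr4, Bmp4, Shh and Ihh were too low to test. The adjusted p of every gene named from these lists was at least 0.945 by edgeR.

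**Figure D5:**
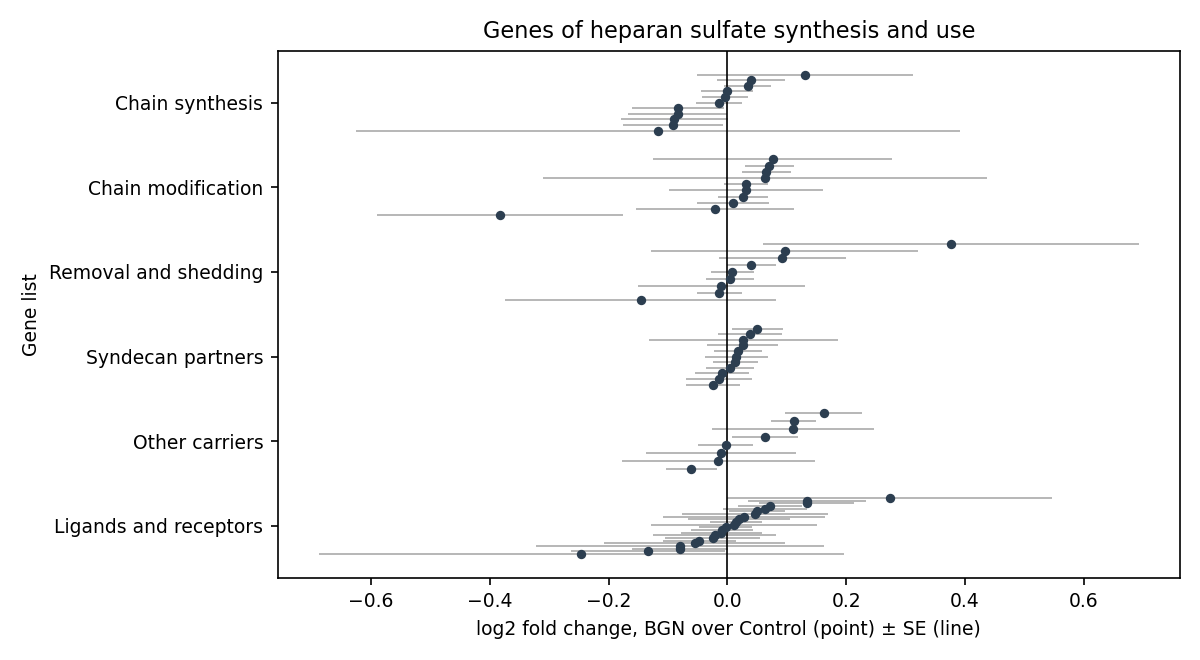
Log2 fold change, BGN over Control (horizontal axis), of the 71 tested genes in 6 lists (rows), each a point with a line for ± SE. Points of every list fall on both sides of 0, and 0 of the 71 genes passed at an adjusted p under 0.05.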

How the data were processed

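RNA from 5 BGN and 5 Control samples was isolated with TRIzol and sequenced as poly-A libraries, per the labels' protocols. The authors deposited raw read counts, a whole number for each gene symbol and sample. The tools listed in the submitters' processing notes are FastQC, cutadapt 1.9.1, HISAT2 2.2.1, HTSeq and DESeq2, with the build GRCm39. Which annotation was counted, and whether by strand, is not given in the sources used here, so reads of overlapping genes may not be separable. Sample titles gave the groups and replicate numbers.

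Low genes were removed with filterByExpr and libraries were scaled by TMM. The test was edgeR's quasi-likelihood F test (edgeR 4.0.16, R 4.3.3, robust) on treatment alone. P-values of all 14415 tested genes were adjusted together by the Benjamini-Hochberg method, and under 0.05 after adjustment a gene was called. SEs were derived from log2 fold changes and F statistics, and 95% intervals from these SEs. CPM per kb used the longest transcript of each symbol in GENCODE M21. Log2 CPM used a prior count of 2. Alternatives were other scalings and filters, DESeq2 1.42.0, limma-voom (limma 3.58.1), a replicate block and left-out libraries. The fitting step was tested on simulated data. Library pairs all differed by more than sampling noise (chi-square per degree of freedom at least 2.43). Each library was counted as its own sample, although this check cannot tell separate cultures from repeated preparations of the same culture.

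The 9 genes and the 6 lists were chosen with earlier results of these data known. Named were all 9 genes, the 2 tested genes of smallest p in each list, and the 2 genes most alike in pattern to the most abundant syndecan and glypican. Genes outside this rule are said to be picked after their values were seen.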

Additional observations from a re-analysis of the deposited data

Results flagged for a closer look

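For the 25 named genes, 50 sets of 5 libraries were screened for a value whose gap to its nearest neighbour exceeded Dixon's 95% critical value (0.71 of the range for 5 samples), and 3 were found; chance gives about 1 in 20. All 3 came from Control replicate 5, the library with the low mitochondrial share. Sdc2 was at 94.4 CPM there, below 102 to 104 CPM in the other Control libraries. B4galt7 was at 19.4 CPM, above 15.7 to 16.3 CPM in the others. Synj2bp was at 70.5 CPM, below 73.6 to 74.7 CPM in the others. The part of that library's mitochondrial share in these values was not tested.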

How the results depend on the processing

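The count of syndecans and glypicans called was 0 in every fit tried, also with each library left out (0 to 0; smallest adjusted p among them 0.736), and 0 at an unadjusted p under 0.05 in the edgeR fit of all libraries. Over all genes the count was 0 except without the filter on low counts, where it was 3, and it was 694 at an unadjusted p under 0.05; with single libraries left out it stayed at 0 (smallest adjusted p 0.231). With the replicate block 0 genes and 0 of the 9 were called. Same-numbered libraries correlated between -0.02 and 0.201, not all above 0.1. Weak correlations cannot exclude pairing, so whether the numbers pair the samples was not settled. Of 398 alternative estimates for the 21 genes whose fold changes were tested again, 387 kept their sign and side of the threshold, and 11 in 5 genes turned sign. With limma-voom Gpc3 was at 0.024 and Gpc6 at -0.0047, and with library totals alone Gpc6 was at -0.0026. Without both replicates 5, Gpc1 was at 0.025. With single libraries left out, estimates ran from -0.081 to -0.030 for Sdc1, -0.043 to -0.011 for Sdc4, -0.095 to -0.012 for Gpc1, -0.24 to -0.070 for Gpc2, 0.047 to 0.12 for Gpc4, -0.039 to 0.0029 for Sdc2, -0.044 to 0.00090 for Sdc3, -0.34 to 0.046 for Gpc3 and -0.063 to 0.073 for Gpc6. With the median transcript as length 3 of 9 genes stayed at their rank by level, and with the shortest transcript 5. At 12 to 104 counts per library, counting alone gives a coefficient of variation of 11.8% for Gpc2 and 21.1% for Gpc3. The observed one was 11.6% and 28.0% in BGN and 21.8% and 45.7% in Control libraries. It lay above the counting value in both groups for Gpc3 and in Control alone for Gpc2, and whether the excess goes beyond counting error was not tested.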
